A study of Danio rerio with 12 samples.

Results

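Primary growth follicles of cdkn1a heterozygous zebrafish (cdkn1a+/-, here HE) were compared with those of wild-type fish (cdkn1a+/+, here WT) at 8 months post-fertilization (mpf), by bulk RNA sequencing. Both groups were of the AB strain and were given the same age and stage by their labels, so that the labels differ in genotype alone. The 6 libraries of the comparison, 3 HE and 3 WT, belong to a series of 12 libraries, the others being HE and WT follicles at 50 days post-fertilization (dpf). Heterozygotes stand in for mutants because fish lacking both copies of cdkn1a die as embryos, so the mutant group still carries a working copy of the gene. Per the labels, total RNA was taken with TRIzol and the libraries were made with a strand-keeping kit. The labels do not say how many follicles or fish went into a library or whether replicates came from separate fish. The p-values therefore measure the spread between these libraries, which may be technical. All genes that could be tested were members of the comparison: 18834 of the 26339 genes with at least 1 count in any of the 12 libraries.

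The primary growth stage is the long early phase of oogenesis, before yolk uptake begins. The oocyte rests in meiotic prophase, transcribes actively and stores messenger RNA, ribosomes and egg-coat proteins, inside a thin envelope of granulosa and theca cells. cdkn1a encodes p21, an inhibitor of cyclin-dependent kinases that is induced by DNA damage and that holds cells before S phase. What follows sorts the genes that differed by function, in both directions.

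Total counts were 61961791, 43003225 and 96839220 in HE replicates 1 to 3 and 46161655, 66844694 and 53431962 in WT replicates 1 to 3. Levels are CPM, which are counts relative to a library size that TMM normalization had adjusted, and means carry the SD over 3 libraries a group. CPM is not corrected for transcript length, so levels of different genes are not compared. WT replicate 2 stood apart: its chi-square per degree of freedom was 91.5 against WT replicate 1 and 66.0 against WT replicate 3, while these other 2 gave 15.6 against each other. Leaving out each library in turn was therefore tried, and counts of at least 8 list members are given without a library that moves them by over 1.5 times. A gene was called at an adjusted p under 0.05 by edgeR's quasi-likelihood F test: 12.6% of all tested genes were called higher in HE and 15.5% lower. Without any threshold on p, every HE library was above every WT library in 23.5% of tested genes and below in 23.5%. Among called genes, 2343 of the 2377 higher and 2847 of the 2911 lower ones had no overlap between the groups. A statement below that the groups of a called gene did not overlap therefore adds little to its call. As for the tissue, the oocyte markers fixed for the check, among them the zona pellucida genes zp2.1 and zp3b, the Balbiani body organizer buc and the germ cell helicase DDX4, summed to between 12292 and 13610 CPM in HE and between 7632 and 9674 CPM in WT libraries. All 9 that the table holds were detected in every library, and 2 were called higher and 1 lower in HE. The 10 markers of granulosa and theca cells summed to 141 to 166 CPM in HE and 159.8 to 172 CPM in WT, nearly all of it CYP17A1, a steroid hydroxylase of theca cells, while FSHR and CYP19A1 of granulosa cells each stayed under 1 CPM.

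The targeted gene was low in every library; where in the gene the CRISPR/Cas9 lesion lies is not given by the labels, so its transcript level is no check of the genotype alone. cdkn1a (ENSDARG00000076554) had levels of 0.397, 0.651 and 0.583 CPM in HE follicles, against 0.668, 1.13 and 0.778 CPM in WT follicles, from 24 to 56 counts in HE and 33 to 92 counts in WT libraries. Each HE library lay below each WT library, and the HE mean was 63.4% of the WT mean. The log2 fold change of -0.68 ± 0.26 (SE) missed the threshold (edgeR adjusted p = 0.068; -0.82 and adjusted p = 0.044 without WT replicate 1), and the exact two-sided permutation test gave p = 0.1, the smallest value that 3 against 3 libraries allow. Of the 40 protein-coding genes nearest to cdkn1a, 22 were matched and tested, and 1 of them was higher and 3 were lower in HE. Among all tested genes 12.6% were higher and 15.5% lower, so neither count stood above the background.

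Inhibitors of cyclin-dependent kinases were lower where they were called. The most abundant of them, CDKN3, was not called (edgeR adjusted p = 0.067). It averaged 44.7 ± 3.49 CPM in HE and 35.6 ± 5.63 CPM in WT follicles, with every HE library above every WT library. Of the 8 such genes tested, 0 were higher and 4 were lower in HE by edgeR's test; at an unadjusted p under 0.05 there was 1 higher, and DESeq2 and limma-trend called 0 higher. cdkn1ca, a p57 gene, averaged 3.48 ± 0.174 CPM in HE and 6.69 ± 0.661 CPM in WT follicles (log2 fold change -0.94). CDKN2D, an inhibitor of CDK4 and CDK6, averaged 1.84 ± 0.286 CPM in HE and 4.01 ± 1.13 CPM in WT follicles. CDKN1B (ENSDARG00000029018), the p27 gene, averaged 0.517 ± 0.174 CPM in HE and 1.44 ± 0.385 CPM in WT follicles.

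Among the 25 tested genes of growth arrest and the DNA damage response, 2 were higher and 9 lower, with a median log2 fold change of -0.08 where all tested genes had 0.01. SPATA18, a factor of mitochondrial quality control, was at 2.48, 2.21 and 2.45 CPM in HE follicles, against 19.3, 27.4 and 25.7 CPM in WT follicles (log2 fold change -3.34 ± 0.15, edgeR adjusted p = 2.8e-08). GADD45A (ENSDARG00000104571), a stress-induced regulator of growth arrest, was at 1.54, 2.02 and 2.05 CPM in HE follicles, against 14.1, 17.5 and 15.1 CPM in WT follicles (log2 fold change -3.06 ± 0.14). bbc3, the death-promoting BH3 protein Puma, averaged 0.371 ± 0.0565 CPM in HE and 2.01 ± 0.900 CPM in WT follicles. In these 3 genes no HE library reached the level of any WT library. POLH, a translesion DNA polymerase, was higher (71.3 ± 1.35 CPM in HE, against 53.7 ± 5.46 CPM in WT), a call that was lost with library size alone. The list moved little as a sum, at 1354, 1342 and 1355 CPM in HE and 1384, 1239 and 1425 CPM in WT libraries. Of 32 apoptosis genes, 2 were higher (6.25%) and 4 lower (12.5%), both under the shares of all tested genes (12.6% and 15.5%). bbc3 was 1 of the lower, and CASP6, an executioner caspase, another (0.529 ± 0.195 CPM in HE, against 1.67 ± 0.142 CPM in WT). The call of CASP6 was lost with limma-trend on the normalized values.

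Over all functions, 2377 genes were called higher in HE and 2911 lower, and the calls in the 2 directions differed in abundance. Of the 1916 genes with a mean above 100 CPM over the 6 libraries, 310 were higher (16.2%) and 53 lower (2.77%), with median log2 fold changes of 0.43 among the higher and -0.57 among the lower. Between 1 and 10 CPM the balance was the other way, with 711 of 4816 genes higher and 1356 lower and medians of 1.01 and -1.24. At or under 1 CPM, 354 of 5387 were higher and 909 lower. The higher genes together took 23.1% of the counts of tested genes in HE and 17.3% in WT, and the lower genes took 2.77% in HE and 5.49% in WT. These genes were picked by their difference in the same libraries, so the direction of both shifts follows from the choice. The split of calls depends on how libraries are scaled: scaling by total counts (library size alone) gave 1337 higher and 4037 lower genes and brought the median gene to -0.17. Upper quartile scaling gave 1754 higher and 3410 lower. Directions below are therefore relative to the median gene. With a minimum absolute log2 fold change of 1, there were 832 higher and 1857 lower genes. RNA was measured from whole follicles, in which fewer cells of a type and less RNA per cell cannot be told apart.

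**Figure D1:**
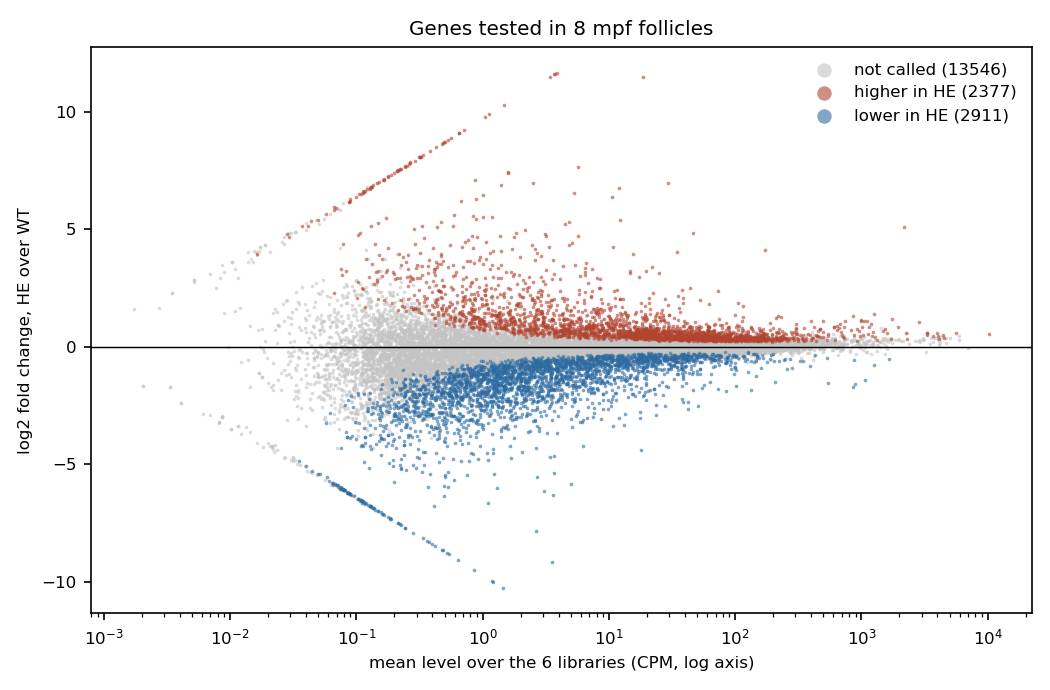
Each point is 1 of the 18834 tested genes, with its mean level over the 6 libraries on a log axis (CPM) and its log2 fold change of HE over WT. Coloured points passed an adjusted p of 0.05: 2377 higher genes above 0 and 2911 lower genes below. Above 100 CPM 310 genes were higher and 53 lower.

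Genes of the folding machinery of the endoplasmic reticulum (ER) were higher in HE. In this compartment secreted and membrane proteins are folded, glycosylated and checked. Of 74 tested members, 36 were higher in HE (48.6%) and 4 lower, with a median log2 fold change of 0.39. The list summed to 22199.9, 21280.4 and 22400.1 CPM in HE and 16728, 15082 and 16474 CPM in WT libraries. HSPA5, the ER chaperone BiP, was at 4124, 3737 and 4106 CPM in HE follicles, against 2856, 2359.7 and 2749.6 CPM in WT follicles (log2 fold change 0.59 ± 0.10, edgeR adjusted p = 0.0012). HSP90B1, the Hsp90 of the ER, was at 2744, 2418 and 2872 CPM in HE follicles, against 1788, 1764 and 1839.6 CPM in WT follicles (0.58 ± 0.10 on the log2 scale). PDIA4, a disulfide isomerase, averaged 1162 ± 140.4 CPM in HE and 678 ± 129.6 CPM in WT follicles. In all 3 every HE library was above every WT library. calr3a, a calreticulin that binds unfinished glycoproteins, averaged 778 ± 102 CPM in HE and 430.0 ± 79.1 CPM in WT follicles. ERO1A, the oxidase that recharges the disulfide isomerases, had the larger log2 fold change of 1.28, at 28.1 ± 4.59 CPM in HE and 11.5 ± 3.62 CPM in WT follicles. DNAJB9 (ENSDARG00000016886), a co-chaperone of BiP, was at 15.6, 15.1 and 20.6 CPM in HE follicles, against 3.50, 8.16 and 3.65 CPM in WT follicles (1.74 ± 0.28 on the log2 scale, edgeR adjusted p = 0.00053). SEL1L, the scaffold of the ligase that removes misfolded ER proteins, averaged 266 ± 4.26 CPM in HE and 173 ± 20.2 CPM in WT follicles. MANF, a factor released under ER stress, averaged 169 ± 6.32 CPM in HE and 101 ± 3.21 CPM in WT follicles. The groups did not overlap in any of these genes.

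The 4 lower members of the ER list included stress-induced regulators. DDIT3, the transcription factor CHOP that the stressed ER induces, averaged 0.199 ± 0.0604 CPM in HE and 1.13 ± 0.279 CPM in WT follicles. ppp1r15a, a phosphatase subunit that restores translation after stress, averaged 19.2 ± 1.54 CPM in HE and 27.8 ± 1.18 CPM in WT follicles, and its constitutive relative ppp1r15b was higher (28.0 ± 1.32 CPM in HE, against 16.8 ± 0.740 CPM in WT). CREB3L1, a membrane-tethered transcription factor, averaged 0.118 ± 0.0306 CPM in HE and 1.65 ± 0.0984 CPM in WT follicles.

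Egg coat and oocyte genes gave a mixed picture. The zona pellucida proteins build the egg envelope that the oocyte secretes. 3 of 18 tested members were higher and 1 lower (8 higher and 1 lower with DESeq2, 8 and 0 with the replicate block, and 1 to 3 higher on leaving out single libraries), and the list summed to 57673, 51769 and 54875 CPM in HE and 45884, 33872 and 45094 CPM in WT libraries. zp3b was at 4128, 3818 and 3764 CPM in HE follicles, against 2066, 1480.0 and 2026 CPM in WT follicles (log2 fold change 1.07 ± 0.14, edgeR adjusted p = 0.00011). zpcx, an egg-coat gene outside the list but among the most abundant genes called higher, was at 1244, 1173 and 1260.4 CPM in HE follicles, against 459.5, 496 and 515 CPM in WT follicles (1.32 ± 0.09 on the log2 scale). In both genes the groups did not overlap. Reads shared by near-identical zona pellucida copies make the level of each copy uncertain.

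**Figure D2:**
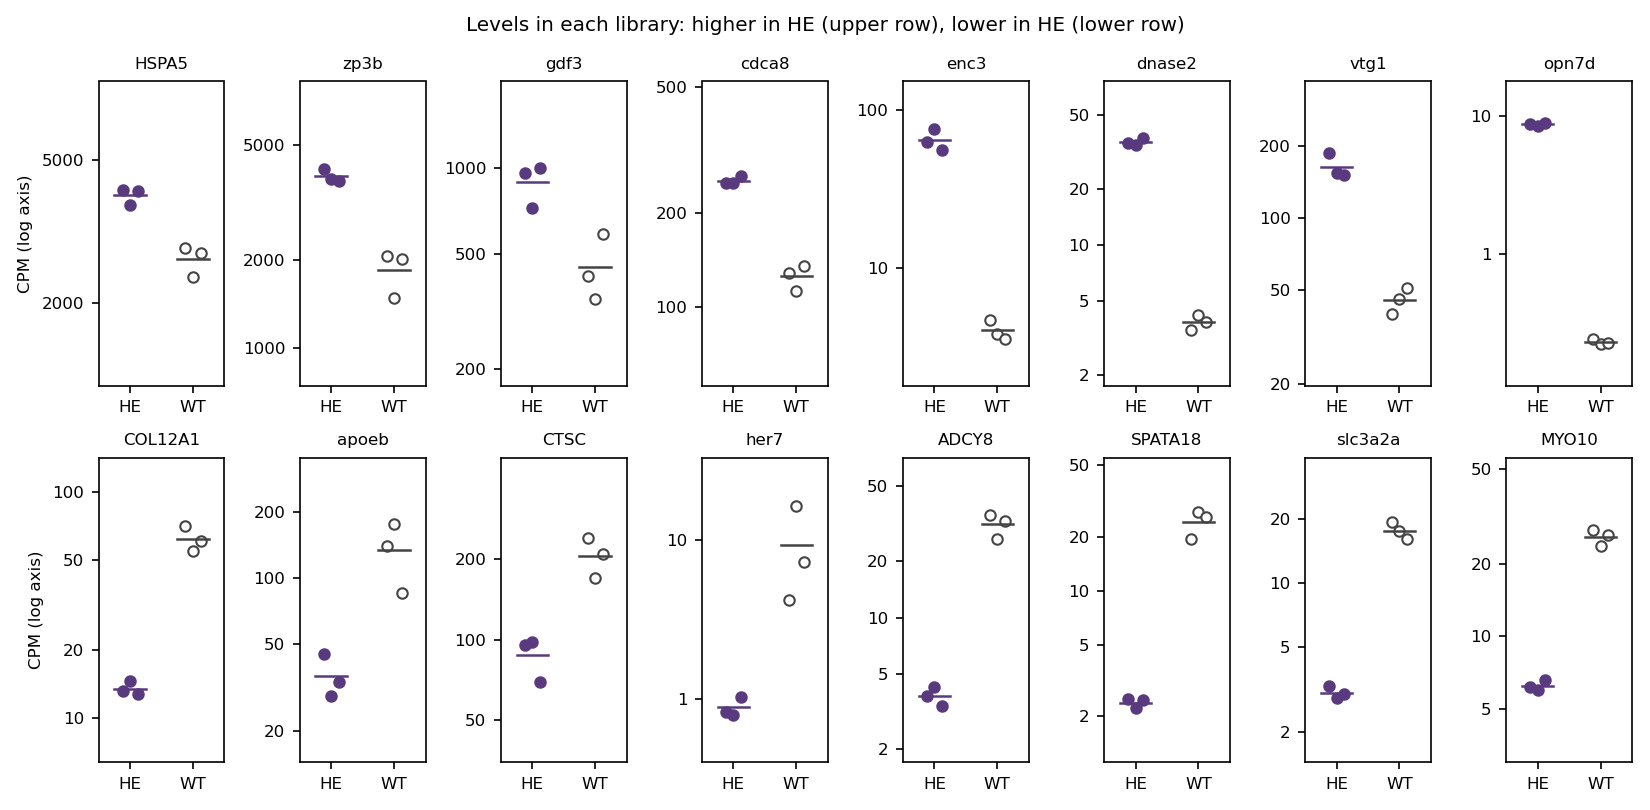
Levels of 16 genes in each library, in CPM on a log axis, with a bar at each group mean. HE libraries are filled circles, left of WT libraries, which are open circles. The upper row holds genes that were higher in HE and the lower row genes that were lower. In none of the 16 do the groups overlap, as in nearly all called genes.

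Among maternal factors that the oocyte stores, npm2b, a nucleoplasmin that chaperones histones in the egg, averaged 546 ± 16.8 CPM in HE and 304 ± 35.6 CPM in WT follicles (log2 fold change 0.85), and its paralog npm2a 36.2 ± 5.01 CPM in HE, against 22.2 ± 1.96 CPM in WT. gdf3, the maternal TGF-beta ligand Vg1 that mesoderm induction needs in zebrafish embryos, was at 959.9, 722 and 992 CPM in HE follicles, against 422, 351 and 589 CPM in WT follicles (0.97 ± 0.20 on the log2 scale). Some transcription factors of the oocyte list were lower. figla, which drives oocyte-specific genes, averaged 33.4 ± 1.47 CPM in HE and 48.8 ± 7.88 CPM in WT follicles (edgeR adjusted p = 0.014; 0.056 without HE replicate 3 and 0.058 without WT replicate 1). pou5f3, the pluripotency factor deposited in the egg, averaged 66.7 ± 9.93 CPM in HE and 104 ± 21.1 CPM in WT follicles, with a call that was lost on leaving out any of 5 libraries (0.081 without HE replicate 1, 0.052 without HE replicate 2, 0.15 without HE replicate 3, 0.15 without WT replicate 1 and 0.061 without WT replicate 3). SOX3 averaged 0.909 ± 0.124 CPM in HE and 2.53 ± 0.535 CPM in WT follicles. CPEB3, which controls the poly(A) tails of stored messenger RNA, averaged 1.65 ± 0.133 CPM in HE and 3.36 ± 0.688 CPM in WT follicles. As a whole, 3 of 20 oocyte transcription and chromatin factors were higher and 3 lower, and 3 of 30 genes of stored messenger RNA were higher and 4 lower.

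Genes of meiotic chromosomes were higher more often than lower, with 8 of 24 against 4 and a median log2 fold change of 0.30; the counts were 5 higher without HE replicate 1, 5 higher without HE replicate 2, 4 higher without HE replicate 3, 4 higher without WT replicate 1 and 4 higher without WT replicate 3. SYCP1, the transverse filament of the synaptonemal complex, was at 10.002, 10.03 and 11.14 CPM in HE follicles, against 2.85, 5.93 and 3.91 CPM in WT follicles (1.29 ± 0.41 on the log2 scale, edgeR adjusted p = 0.034). Its call did not hold when single libraries were left out (0.072 without HE replicate 1, 0.07 without HE replicate 2, 0.094 without HE replicate 3, 0.1 without WT replicate 1 and 0.1 without WT replicate 3) or with library size alone or limma-trend. spo11, whose protein cuts DNA to start recombination, averaged 18.1 ± 0.120 CPM in HE and 13.0 ± 0.973 CPM in WT follicles. rad21l1, a meiotic cohesin subunit, averaged 36.8 ± 1.27 CPM in HE and 25.1 ± 1.07 CPM in WT follicles. MEI4, a partner of the cutting enzyme in mouse, was 1 of the 4 lower members, at 5.50 ± 0.532 CPM in HE, against 13.2 ± 2.50 CPM in WT. In the germ plasm and piRNA list 5 of 31 members were higher and 3 lower, a balance that turned with library size alone and with upper quartile scaling. TDRD7, a Tudor protein of germ granules, was at 10.6, 10.3 and 10.5 CPM in HE follicles, against 1.48, 1.44 and 1.003 CPM in WT follicles (2.999 ± 0.16 on the log2 scale). PIWIL2, a piRNA-binding Argonaute, averaged 116 ± 9.94 CPM in HE and 174 ± 29.98 CPM in WT follicles.

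Cyclic AMP keeps the oocyte in meiotic arrest. Of 30 genes of that pathway and of maturation, 2 were higher (6.67%) and 4 lower (13.3%). Both shares were under those of all tested genes (12.6% and 15.5%). gpr3, the receptor that sustains this cyclic AMP in mouse oocytes, was at 1.37, 1.49 and 1.43 CPM in HE follicles, against 0, 0 and 0 CPM in WT follicles, so that it was at least 28.7-fold higher when each WT library is set to a floor of 3 counts. ADCY8, an adenylyl cyclase, was at 3.82, 4.26 and 3.40 CPM in HE follicles, against 35.4, 26.1 and 32.8 CPM in WT follicles (-3.04 ± 0.14 on the log2 scale), while ADCY6 (ENSDARG00000061445), another cyclase, was higher (15.7 ± 1.02 CPM in HE, against 8.56 ± 0.782 CPM in WT).

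Among genes of ribosome production, more were higher than lower, by small folds. Of 68 genes of ribosome biogenesis and RNA polymerase I, 21 were higher and 1 lower, with a median log2 fold change of 0.24. The counts were 11 higher without HE replicate 1, 10 higher without HE replicate 3 and 10 higher without WT replicate 3. With the replicate block 12 were higher, and over all alternatives the count of higher members ranged from 4 to 26. DDX18, a helicase of the large subunit precursor, was at 199.8, 176 and 207 CPM in HE follicles, against 103, 137 and 122 CPM in WT follicles (0.68 ± 0.11 on the log2 scale, edgeR adjusted p = 0.00054). NOP56, a core protein of the methylating box C/D particles, averaged 328 ± 1.54 CPM in HE and 251 ± 10.6 CPM in WT follicles, and noc4l, of the nucleolar complex that matures small subunits, 75.9 ± 8.06 CPM in HE, against 46.3 ± 11.8 CPM in WT; the noc4l call was lost with library size alone. 6 of 79 cytosolic ribosomal protein genes were called higher and 0 lower, with a median of 0.30. The count of higher members ranged from 1 without HE replicate 1 or without WT replicate 3 to 15 with DESeq2 and 24 in the fit of the 6 libraries alone, so that its share fell on either side of that among all genes. The count of lower members was 0 as well at an unadjusted edgeR p under 0.05 and with DESeq2 or limma-trend, here and in the aminoacyl tRNA synthetases described next. RPL29 averaged 111 ± 6.13 CPM in HE and 64.3 ± 14.1 CPM in WT follicles. Translation factors gave 9 of 66 higher and 1 lower, close to the share of higher calls among all genes (4 higher without HE replicate 1, 5 higher without HE replicate 3, 5 higher without WT replicate 1 and 15 higher without WT replicate 2). Aminoacyl tRNA synthetases gave 7 of 38 higher and 0 lower, KARS1 among them (335 ± 22.2 CPM in HE, against 215 ± 7.75 CPM in WT), and with library size alone this balance turned. Of 75 mitochondrial ribosomal protein genes 3 were higher (4%) and 1 lower (1.33%), both under the shares of all tested genes (12.6% and 15.5%). Without WT replicate 2, 18 were higher and 2 lower, and with library size alone the balance turned.

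Lists of DNA synthesis and of chromosome segregation held more higher than lower members, as did all genes above 100 CPM (16.2% higher and 2.77% lower). 8 of 37 G1 and S phase genes were higher (21.6%) and 4 lower (10.8%), with 5 higher without HE replicate 1. Of 43 mitotic genes 6 were higher (14.0%) and 1 lower (2.33%), near the shares of all genes above 100 CPM. Of 48 DNA repair genes 9 were higher and 2 lower (4 higher without HE replicate 1, 3 higher without HE replicate 2, 4 higher without HE replicate 3, 5 higher without WT replicate 1 and 5 higher without WT replicate 3); with library size alone each of these 3 lists held more lower than higher members. RRM2 (ENSDARG00000020711), a subunit of the enzyme that makes deoxynucleotides, was at 825, 856 and 817 CPM in HE follicles, against 491, 389 and 478 CPM in WT follicles (0.88 ± 0.12 on the log2 scale, edgeR adjusted p = 0.00020). cdca8, the borealin subunit of the chromosomal passenger complex, was at 248, 248 and 261 CPM in HE follicles, against 129, 113 and 135 CPM in WT follicles (1.01 ± 0.15 on the log2 scale). Both parted the groups without overlap. The other gene of this symbol, RRM2 (ENSDARG00000078069), the most abundant member of the G1 and S phase list, was not called (edgeR adjusted p = 0.54). It averaged 1248.5 ± 45.5 CPM in HE and 1160.1 ± 157 CPM in WT follicles, and its groups overlapped. FZR1, an activator of the anaphase-promoting complex, averaged 105 ± 9.98 CPM in HE and 74.5 ± 6.39 CPM in WT follicles, a call lost with library size alone. FANCL, the ubiquitin ligase of the Fanconi anaemia pathway, averaged 39.8 ± 3.21 CPM in HE and 13.3 ± 0.290 CPM in WT follicles (log2 fold change 1.58). The lower members included the G1 cyclins CCND1 (6.32 ± 0.390 CPM in HE, against 19.8 ± 1.16 CPM in WT) and CCNE2 (1.88 ± 0.402 CPM in HE, against 4.95 ± 0.674 CPM in WT).

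In each of the signalling lists that follow, more members were called lower than higher. The same held for all genes between 1 and 10 CPM (28.2% lower and 14.8% higher), and the lists were not matched for abundance. All 18 called members of the 31 Notch and hedgehog genes were lower (58.1%), and their median log2 fold change was -1.01. None was called higher by edgeR, DESeq2 or limma-trend, and at an unadjusted edgeR p under 0.05 there was 1. her7, a target of Notch, was at 0.827, 0.791 and 1.02 CPM in HE follicles, against 4.17, 16.5 and 7.30 CPM in WT follicles (-3.39 ± 0.45 on the log2 scale). notch2, a receptor, averaged 9.40 ± 1.34 CPM in HE and 24.1 ± 1.35 CPM in WT follicles, and the ligand dll4 0.0572 ± 0.0632 CPM in HE, against 1.61 ± 0.877 CPM in WT. LFNG, a glycosyltransferase that tunes Notch, averaged 0.920 ± 0.0487 CPM in HE and 3.43 ± 0.477 CPM in WT follicles. No HE library reached a WT library in any of these genes. The most abundant member of the list, SUFU, was not called (edgeR adjusted p = 0.091). It averaged 143 ± 2.32 CPM in HE and 113 ± 17.3 CPM in WT follicles, with every HE library above every WT library. In the Wnt pathway 2 of 43 genes were higher and 15 lower. The receptor gene FZD7 (ENSDARG00000060004) averaged 3.64 ± 0.377 CPM in HE and 14.5 ± 2.91 CPM in WT follicles, and FZD8 (ENSDARG00000038569) of the same family was higher (6.88 ± 0.664 CPM in HE, against 1.63 ± 0.322 CPM in WT). wnt11f2, a ligand, averaged 2.97 ± 0.259 CPM in HE and 8.08 ± 0.758 CPM in WT follicles, and LEF1, the transcription factor that Wnt signals act on, 32.2 ± 3.33 CPM in HE, against 45.2 ± 4.17 CPM in WT.

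Of 55 genes of the TGF-beta family, 6 were higher and 17 lower. Their sum went the other way, at 2298, 2158 and 2379 CPM in HE and 1866, 1568 and 2015 CPM in WT libraries. Its most abundant member was gdf3, given above as higher. The lower calls included BAMBI (ENSDARG00000055381), a decoy receptor, and ID3, an inhibitor of DNA binding that BMP signals induce. BAMBI was at 2.76, 2.91 and 2.51 CPM in HE follicles, against 17.9, 13.9 and 18.9 CPM in WT follicles (-2.63 ± 0.14 on the log2 scale, edgeR adjusted p = 9.8e-08). ID3 was at 13.9, 14.2 and 13.7 CPM in HE follicles, against 48.7, 40.3 and 45.2 CPM in WT follicles (-1.68 ± 0.09 on the log2 scale). ID2 by contrast was higher (201 ± 10.2 CPM in HE, against 137 ± 11.99 CPM in WT), as was the ligand TGFB2 (4.22 ± 0.518 CPM in HE, against 1.79 ± 0.101 CPM in WT). SMAD3 (ENSDARG00000010207), a signal transducer, averaged 0.768 ± 0.0512 CPM in HE and 2.90 ± 0.508 CPM in WT follicles, and the nodal ligand ndr1 7.68 ± 0.433 CPM in HE, against 14.8 ± 1.15 CPM in WT. Of the receptor tyrosine kinase pathways of EGF, FGF, Kit and VEGF, 10 of 51 genes were higher (19.6%) and 14 lower (27.5%). Both shares exceeded those of all tested genes, 12.6% and 15.5%. Feedback inhibitors that ERK signals induce were among the lower, with DUSP5 at 1.53 ± 0.0647 CPM in HE, against 8.76 ± 1.60 CPM in WT, SPRY4 at 1.36 ± 0.134 CPM in HE, against 6.49 ± 0.836 CPM in WT and DUSP6 at 3.79 ± 0.560 CPM in HE, against 9.41 ± 1.58 CPM in WT. DUSP7, another phosphatase of ERK, was higher (30.7 ± 2.04 CPM in HE, against 14.3 ± 1.29 CPM in WT). The VEGF receptor kdrl (8.31 ± 0.404 CPM in HE, against 3.48 ± 0.347 CPM in WT) and the co-receptor NRP1 (14.4 ± 0.108 CPM in HE, against 6.46 ± 0.828 CPM in WT) were higher too.

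Insulin and IGF signalling held 1 higher and 9 lower among 44. IGFBP3, which binds IGF outside the cell, averaged 6.61 ± 0.361 CPM in HE and 23.2 ± 0.457 CPM in WT follicles (log2 fold change -1.81). IRS2 (ENSDARG00000075282), an adaptor of the insulin receptor, averaged 0.412 ± 0.0565 CPM in HE and 3.25 ± 0.238 CPM in WT follicles. Of 45 genes of follicle somatic cells and steroid synthesis, 1 was higher and 12 were lower, with a median log2 fold change of -0.41. The higher one was hsd3b2, a steroid dehydrogenase (43.4 ± 0.558 CPM in HE, against 27.9 ± 5.27 CPM in WT). The lower ones included ESR2 (ENSDARG00000016454), an estrogen receptor (4.66 ± 0.495 CPM in HE, against 8.04 ± 0.707 CPM in WT), and the transcription factors wt1b (0.262 ± 0.1004 CPM in HE, against 1.13 ± 0.336 CPM in WT) and GATA6 (1.05 ± 0.169 CPM in HE, against 1.78 ± 0.186 CPM in WT). The granulosa factor FOXL2 (ENSDARG00000068417) averaged 0.611 ± 0.162 CPM in HE and 1.302 ± 0.617 CPM in WT follicles, and its call was lost with the replicate block, in a fit of the 6 libraries alone and on leaving out single libraries (0.074 without HE replicate 1, 0.1 without HE replicate 3 and 0.1 without WT replicate 1).

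**Figure D3:**
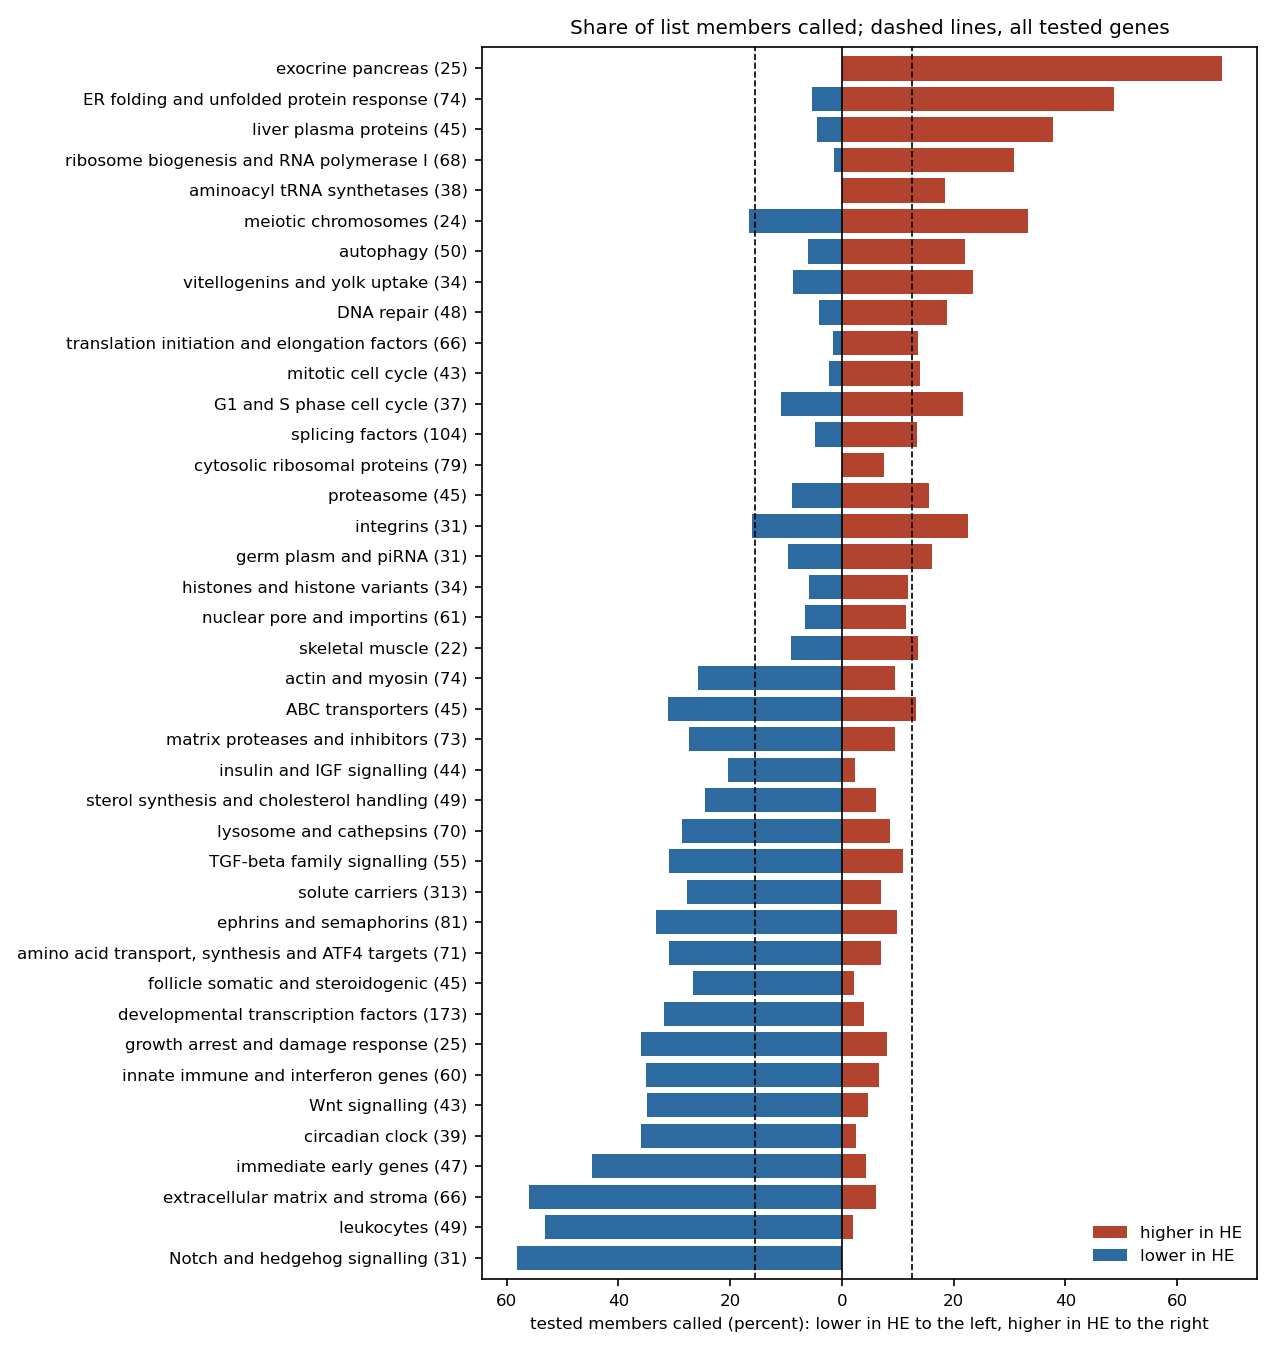
For 40 gene lists (of those with at least 20 tested members, the 20 with the highest and the 20 with the lowest share called higher less share called lower), the share of tested members called higher in HE (right, percent) and lower in HE (left, percent), with the number of tested members beside each name. Dashed lines mark the shares among all tested genes, 12.6% higher and 15.5% lower. ER folding, exocrine pancreas and liver lists reach farthest to the right, and Notch and hedgehog, extracellular matrix and leukocyte lists farthest to the left.

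Extracellular matrix and connective tissue genes were lower in HE. Of 66 tested, 4 were higher and 37 lower (56.1%), with a median log2 fold change of -1.05. The list summed to 328, 325 and 297 CPM in HE and 605, 490.4 and 483 CPM in WT libraries. COL12A1 (ENSDARG00000078322), a collagen that coats other collagen fibrils, was at 13.1, 14.6 and 12.7 CPM in HE follicles, against 70.8, 54.6 and 60.7 CPM in WT follicles (-2.21 ± 0.15 on the log2 scale, edgeR adjusted p = 5.0e-07). The fibronectin gene FN1 (ENSDARG00000019815) was at 39.6, 36.4 and 23.2 CPM in HE follicles, against 116, 75.5 and 85.4 CPM in WT follicles (-1.48 ± 0.19 on the log2 scale). THBS1, a thrombospondin, averaged 0.345 ± 0.0453 CPM in HE and 4.23 ± 1.14 CPM in WT follicles. NID2, a nidogen of the basement membrane, averaged 1.78 ± 0.307 CPM in HE and 4.96 ± 0.147 CPM in WT follicles. All 4 had every HE library below every WT library. The 4 higher members included the laminin chain lamc3 (9.93 ± 0.606 CPM in HE, against 4.96 ± 0.233 CPM in WT). The 8 stromal markers that could be tested gave 5 lower and 0 higher genes by edgeR (0 higher also at an unadjusted p under 0.05 and with DESeq2 or limma-trend), and the 9 present summed to 13.6 to 15.7 CPM in HE and 20.7 to 27.1 CPM in WT. The part of these markers' shift in the matrix result was not tested.

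More leukocyte genes were lower than higher, too. Of 49 tested, 1 was higher and 26 were lower, with a median of -1.08 (17 lower without HE replicate 2 and 17 lower without HE replicate 3). The sums of the list overlapped, at 1764 to 1942 CPM in HE and 1626 to 2007 CPM in WT libraries. Most of each sum was ctss2.1, which was not called (1735 ± 80.3 CPM in HE, against 1501 ± 228 CPM in WT). apoeb, an apolipoprotein that macrophages make, was at 45.3, 28.9 and 33.7 CPM in HE follicles, against 139.8, 176 and 85.4 CPM in WT follicles (-1.90 ± 0.23 on the log2 scale). The chemokine receptor CXCR4 (ENSDARG00000057633) was at 1.32, 1.28 and 1.04 CPM in HE follicles, against 12.4, 9.41 and 11.2 CPM in WT follicles. CCR9 (ENSDARG00000055186), another chemokine receptor, averaged 1.17 ± 0.557 CPM in HE and 10.7 ± 2.65 CPM in WT follicles. These parted the groups completely, whereas the pan-leukocyte phosphatase ptprc did not differ beyond its spread (0.990 ± 0.529 CPM in HE, against 1.83 ± 0.890 CPM in WT; edgeR adjusted p = 0.35). CORO1A, an actin regulator of leukocytes, averaged 4.21 ± 0.952 CPM in HE and 9.07 ± 0.666 CPM in WT follicles, and LCP1, their plastin, 4.63 ± 1.54 CPM in HE, against 9.06 ± 2.13 CPM in WT. The macrophage gene MPEG1 (ENSDARG00000043093) averaged 0.756 ± 0.0793 CPM in HE and 3.48 ± 1.1198 CPM in WT follicles. The lysozyme gene lyz, 1 of the fixed markers, was at 2.35, 1.37 and 1.57 CPM in HE follicles, against 1.11, 1.08 and 1.02 CPM in WT follicles (edgeR adjusted p = 0.18), with every HE library above every WT library, a difference that missed the threshold. The 6 leukocyte markers present, 3 of them called lower, summed to 16.9 to 29.0 CPM in HE and 29.8 to 39.2 CPM in WT libraries, and the part of a change in leukocytes in the results beside them was not tested.

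Innate immune and interferon genes numbered 4 higher and 21 lower among 60. c3a.1, complement component C3, averaged 1.47 ± 0.590 CPM in HE and 12.05 ± 3.31 CPM in WT follicles. The MHC class I chain mhc1uba averaged 2.26 ± 0.774 CPM in HE and 9.20 ± 3.02 CPM in WT follicles, and its partner b2m 6.25 ± 0.742 CPM in HE, against 13.3 ± 2.79 CPM in WT. The immunoproteasome subunits PSMB9 (0.442 ± 0.147 CPM in HE, against 1.90 ± 0.257 CPM in WT) and PSMB8 (0.234 ± 0.0362 CPM in HE, against 1.11 ± 0.194 CPM in WT) were lower too. In the proteasome list as a whole, 7 of 45 were higher, all of them subunits of the common proteasome, and 4 were lower, a balance that turned with upper quartile scaling, with library size alone and without HE replicate 1. The transcription factors nfkb1 and irf1a were higher. nfkb1 was at 12.1, 10.98 and 11.9 CPM in HE follicles, against 1.68, 1.36 and 1.11 CPM in WT follicles (3.08 ± 0.19 on the log2 scale), and irf1a at 6.35, 6.42 and 7.09 CPM in HE follicles, against 0.830, 0.871 and 0.605 CPM in WT follicles (3.10 ± 0.24 on the log2 scale). Of 11 genes of the NLR family, which sense microbes inside cells, 6 were higher and 1 was lower. NOD2 averaged 4.795 ± 0.203 CPM in HE and 0.999 ± 0.248 CPM in WT follicles. NLRC3 (ENSDARG00000103146) averaged 21.02 ± 0.478 CPM in HE and 0.252 ± 0.0757 CPM in WT follicles, though this large family holds near-identical copies whose reads may be split.

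Endothelial genes were split, with 4 higher and 6 lower among 23. kdrl, given above, stood with stab2, a scavenger receptor (26.1 ± 3.36 CPM in HE, against 12.3 ± 1.84 CPM in WT), on the higher side. The endothelial transcription factor FLI1 (0.274 ± 0.0930 CPM in HE, against 1.91 ± 0.812 CPM in WT) and the receptor TIE1 (0.435 ± 0.178 CPM in HE, against 1.90 ± 0.148 CPM in WT) were lower. Erythrocyte genes gave 3 higher and 3 lower among 17.

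**Figure D4:**
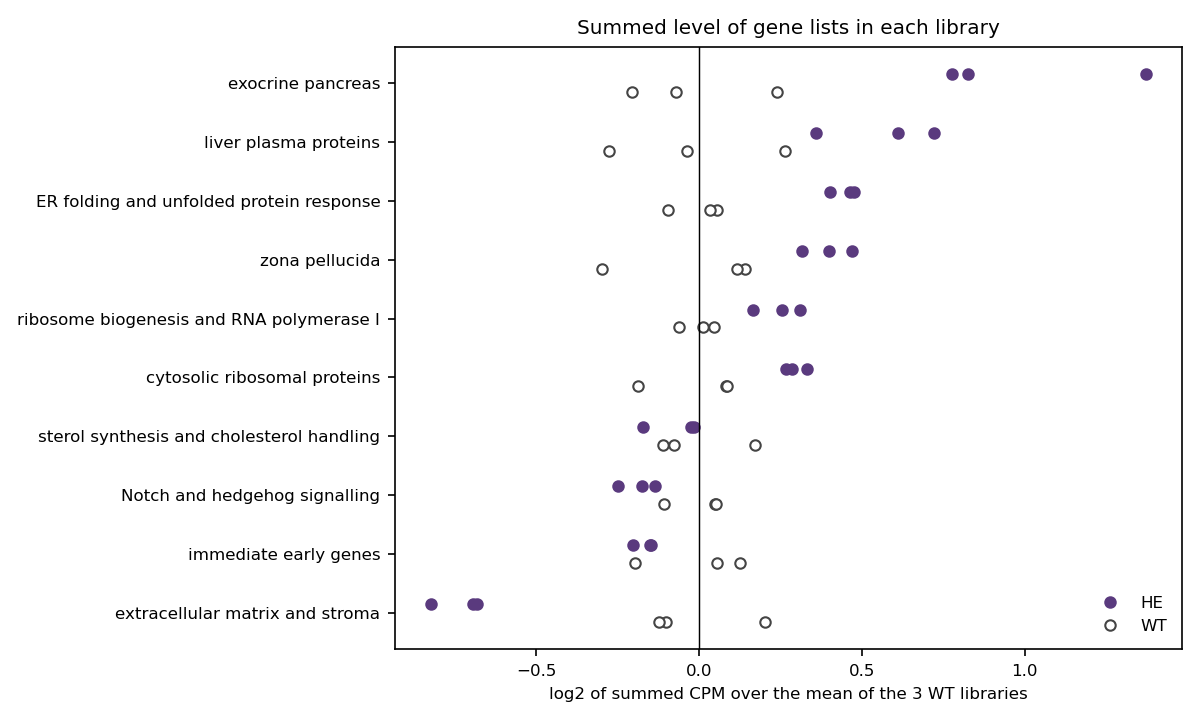
Summed CPM of 10 gene lists in each library, as log2 of the library's sum over the mean sum of the 3 WT libraries; HE libraries are filled circles and WT libraries, drawn below them in each row, open circles. In the ER folding, exocrine pancreas and liver lists all 3 HE libraries exceeded every WT library, as in the zona pellucida, ribosome biogenesis and cytosolic ribosomal protein lists. In the extracellular matrix and the Notch and hedgehog lists all 3 were below. The separation of the liver list rested on kng1.

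Genes typical of the liver and the exocrine pancreas were higher in HE. Of 25 tested genes of the exocrine pancreas, 17 were higher and 0 lower by edgeR (0 lower also at an unadjusted p under 0.05 and with DESeq2 or limma-trend), and of 45 genes for plasma proteins of the liver, 17 were higher and 2 lower. 1 of the 2 lower was c3a.1, given above (1.47 ± 0.590 CPM in HE, against 12.05 ± 3.31 CPM in WT). Of the 4 fixed liver markers 3 were higher, and apoa1a was not called (edgeR adjusted p = 0.59). Pancreas genes summed to 181, 123 and 119 CPM in HE and 82.2, 60.4 and 66.4 CPM in WT libraries, and liver genes to 54.3, 42.3 and 50.3 CPM in HE and 32.1, 39.6 and 27.2 CPM in WT libraries. The trypsinogen prss1 was at 18.5, 11.5 and 12.6 CPM in HE follicles, against 7.71, 4.31 and 6.40 CPM in WT follicles (1.22 ± 0.24 on the log2 scale). fabp10a, a liver fatty acid carrier, was at 2.28, 1.42 and 1.68 CPM in HE follicles, against 0, 0.172 and 0.173 CPM in WT follicles (3.83 ± 0.47 on the log2 scale). kng1, a kininogen of plasma, was at 14.0, 11.98 and 13.8 CPM in HE follicles, against 1.80, 0.932 and 1.37 CPM in WT follicles (3.30 ± 0.21 on the log2 scale, edgeR adjusted p = 3.1e-07). HE replicate 1 was the highest library for fabp10a and prss1, and every HE library was above every WT library in these 3 genes. The lowest HE sum of liver genes (42.3 CPM, replicate 2) lay just above the highest WT sum (39.6 CPM, replicate 2). These 2 libraries differed by more than that in kng1 alone (11.98 and 0.932 CPM), so the separation of the liver sums rested on this gene. The elastase gene ela2l had 3 counts in all WT libraries together and averaged 3.16 CPM in HE, a ratio of 199 with a counting interval of 68.0 to 963 (exact Poisson, 95%, counting error only).

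Vitellogenins, yolk proteins that the liver makes and the oocyte later takes up, were higher as well. vtg1 was at 186, 154 and 150.4 CPM in HE follicles, against 39.4, 45.7 and 50.9 CPM in WT follicles (1.85 ± 0.14 on the log2 scale, edgeR adjusted p = 1.7e-06). Other higher copies were vtg2 (44.9 ± 9.44 CPM in HE, against 10.96 ± 0.223 CPM in WT), vtg5 (35.3 ± 5.63 CPM in HE, against 12.8 ± 1.89 CPM in WT), vtg4 (31.8 ± 5.70 CPM in HE, against 10.5 ± 0.879 CPM in WT) and vtg7 (20.9 ± 3.35 CPM in HE, against 5.07 ± 0.731 CPM in WT). Their copies are near-identical in part, so that reads may be split among them. Of 34 genes of vitellogenins and yolk uptake, 8 were higher and 3 lower. The part of liver and pancreas RNA in the results beside these genes was not tested.

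In metabolism, genes of sterol synthesis and handling were more often lower than higher, 3 of 49 being higher and 12 lower. The summed levels of this list overlapped between the groups. SQLE (ENSDARG00000079946), the squalene epoxidase of cholesterol synthesis, was at 0.661, 0.651 and 0.885 CPM in HE follicles, against 6.46, 5.46 and 7.30 CPM in WT follicles (-3.10 ± 0.19 on the log2 scale), and LSS, the enzyme after it, averaged 3.21 ± 0.221 CPM in HE and 11.2 ± 1.69 CPM in WT follicles. abca1b, which exports cholesterol, averaged 4.52 ± 1.19 CPM in HE and 30.8 ± 11.06 CPM in WT follicles. MVD, an enzyme of the mevalonate steps, was higher instead (18.0 ± 1.07 CPM in HE, against 9.11 ± 1.71 CPM in WT). Among 68 genes of fatty acids and lipids, 4 were higher and 15 lower. hadhaa, of mitochondrial fatty acid oxidation, averaged 145 ± 3.84 CPM in HE and 82.2 ± 9.51 CPM in WT follicles. PLIN2, which coats lipid droplets, averaged 1.21 ± 0.209 CPM in HE and 7.08 ± 1.57 CPM in WT follicles, and LPL (ENSDARG00000098720), lipoprotein lipase, 1.61 ± 0.309 CPM in HE, against 4.20 ± 0.350 CPM in WT.

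Amino acid transport, synthesis and the targets of the stress factor ATF4 gave 5 higher and 22 lower genes among 71. slc3a2a, the heavy chain shared by several amino acid exchangers, was at 3.29, 2.89 and 3.01 CPM in HE follicles, against 19.4, 17.7 and 16.1 CPM in WT follicles (-2.53 ± 0.12 on the log2 scale, edgeR adjusted p = 3.4e-08). cbsb, an enzyme that makes cystathionine, averaged 22.5 ± 2.56 CPM in HE and 54.8 ± 8.78 CPM in WT follicles, and CTH (ENSDARG00000032206), which splits it to cysteine, 0.394 ± 0.251 CPM in HE, against 2.47 ± 0.272 CPM in WT. Of the solute carriers in all, 22 of 313 were higher and 87 lower (27.8%), with a median of -0.21. SLC12A7, a potassium-chloride cotransporter, was at 1.31, 1.79 and 1.76 CPM in HE follicles, against 39.6, 27.5 and 35.6 CPM in WT follicles (-4.40 ± 0.29 on the log2 scale). SLC46A1, a proton-coupled folate transporter, was higher (32.0 ± 1.90 CPM in HE, against 14.4 ± 2.201 CPM in WT).

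Carbohydrate genes were balanced, with 7 higher and 7 lower among 60. PFKM (ENSDARG00000014179), a phosphofructokinase, averaged 38.14 ± 1.58 CPM in HE and 14.0 ± 0.876 CPM in WT follicles. ME1, the malic enzyme that makes NADPH, was at 9.11, 8.68 and 10.5 CPM in HE follicles, against 36.8, 37.7 and 37.6 CPM in WT follicles (-1.98 ± 0.10 on the log2 scale). PDK2 (ENSDARG00000059054), a kinase that shuts off pyruvate dehydrogenase, averaged 0.241 ± 0.200 CPM in HE and 6.56 ± 1.502 CPM in WT follicles. Nuclear genes of oxidative phosphorylation were seldom called, 5 of 95 being higher and 2 lower, and without WT replicate 2 the counts were 2 higher and 4 lower. Of 13 transcripts of the mitochondrial genome, 3 were lower and 0 higher by edgeR, and 0 were higher at an unadjusted p under 0.05 or with DESeq2 or limma-trend. MT-CO1, a subunit of cytochrome oxidase, was at 198, 154 and 177 CPM in HE follicles, against 374, 353 and 282 CPM in WT follicles (-0.93 ± 0.14 on the log2 scale).

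Lysosomal genes held 6 higher and 20 lower members among 70. dnase2, the lysosomal nuclease that digests DNA of engulfed cells, was at 35.3, 34.3 and 37.7 CPM in HE follicles, against 3.50, 4.21 and 3.86 CPM in WT follicles (3.21 ± 0.12 on the log2 scale, edgeR adjusted p = 7.4e-09). CTSC, a cathepsin that activates proteases of immune cells, was at 95.5, 97.8 and 69.1 CPM in HE follicles, against 240.3, 170.2 and 209.8 CPM in WT follicles (-1.24 ± 0.14 on the log2 scale). PPT1, which strips palmitate from proteins, was at 70.0, 68.3 and 64.2 CPM in HE follicles, against 144, 121 and 139 CPM in WT follicles (-0.998 ± 0.13 on the log2 scale). For dnase2 the HE libraries lay above, and for CTSC and PPT1 below, every WT library. The progranulin grna averaged 7.32 ± 1.98 CPM in HE and 27.6 ± 7.08 CPM in WT follicles. Autophagy genes were higher in 11 and lower in 3 of 50 (7 higher without HE replicate 1, 6 higher without HE replicate 2 and 7 higher without HE replicate 3). PINK1, the kinase that marks damaged mitochondria, averaged 17.9 ± 1.95 CPM in HE and 4.27 ± 0.769 CPM in WT follicles (log2 fold change 2.07). ATG10, which joins ATG12 to ATG5 in the machinery that lipidates LC3, averaged 34.5 ± 0.952 CPM in HE and 23.3 ± 3.28 CPM in WT follicles. BNIP3L (ENSDARG00000025468), a receptor for removing mitochondria, was lower (1.55 ± 0.358 CPM in HE, against 4.85 ± 0.702 CPM in WT).

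Eicosanoids are lipid signals cut from arachidonic acid, among them prostaglandins that drive ovulation. 7 of 32 genes were higher and 12 lower. alox5b.3, a lipoxygenase, was at 36.0, 33.0 and 42.8 CPM in HE follicles, against 0.0405, 0 and 0 CPM in WT follicles. The 3 WT libraries held 2 counts between them, which gives a ratio of 3517 with a counting interval of 974 to 29038 (exact Poisson, 95%, counting error only). The epoxide hydrolases ephx5 (10.04 ± 0.648 CPM in HE, against 29.5 ± 0.663 CPM in WT) and EPHX2 (18.5 ± 1.05 CPM in HE, against 47.5 ± 7.48 CPM in WT) were lower. The prostaglandin synthase gene PTGS2 (ENSDARG00000004539) averaged 0.340 ± 0.236 CPM in HE and 4.38 ± 1.41 CPM in WT follicles. Antioxidant genes gave 6 higher and 6 lower among 48.

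Early response genes, which cells switch on within minutes of a stimulus, were lower in HE for 21 of 47 and higher for 2. MYC (ENSDARG00000045695), a growth-promoting transcription factor, was at 0.827, 0.884 and 0.791 CPM in HE follicles, against 3.50, 3.34 and 4.01 CPM in WT follicles (-2.12 ± 0.16 on the log2 scale). The AP-1 factors JUNB (ENSDARG00000074378; 8.62 ± 0.667 CPM in HE, against 20.96 ± 4.94 CPM in WT) and JUN (1.77 ± 0.510 CPM in HE, against 6.29 ± 1.79 CPM in WT) were lower, and NR4A1, an orphan nuclear receptor, was higher (19.5 ± 0.623 CPM in HE, against 8.30 ± 1.69 CPM in WT). Genes of the circadian clock were lower in 14 of 39 cases and higher in 1. cry5, a light-responsive gene of the cryptochrome family, was at 28.2, 26.4 and 27.1 CPM in HE follicles, against 62.6, 53.9 and 60.9 CPM in WT follicles (-1.12 ± 0.10 on the log2 scale). BMAL1 (ENSDARG00000035732), an activator of the clock, averaged 6.71 ± 0.153 CPM in HE and 13.4 ± 0.966 CPM in WT follicles. The time of day at which follicles were taken is not given by the labels, and its part in these values was not tested.

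Of 173 transcription factors of embryonic patterning, 7 were higher and 55 lower, with a median of -0.74. snai2, a zinc-finger factor of migrating cells, was at 2.41, 2.35 and 2.24 CPM in HE follicles, against 11.97, 12.3 and 12.6 CPM in WT follicles (-2.40 ± 0.13 on the log2 scale, edgeR adjusted p = 1.0e-07). foxq1b averaged 5.81 ± 0.374 CPM in HE and 20.6 ± 2.63 CPM in WT follicles, and PAX6 (ENSDARG00000045936), an eye and brain factor, 0.106 ± 0.0776 CPM in HE, against 7.08 ± 1.75 CPM in WT. SOX8 (ENSDARG00000037782) was among the higher (10.8 ± 1.65 CPM in HE, against 2.16 ± 0.173 CPM in WT). Cytosolic heat shock genes were split, 7 of 40 being higher and 8 lower, a balance that turned without WT replicate 2 and with limma-trend. CHORDC1 (ENSDARG00000003973), a co-chaperone of Hsp90, averaged 29.7 ± 2.95 CPM in HE and 8.98 ± 1.996 CPM in WT follicles, and dnajb1a, of Hsp70, 23.2 ± 1.51 CPM in HE, against 15.6 ± 0.728 CPM in WT. The stress-induced hsp70.1 averaged 3.30 ± 0.105 CPM in HE and 9.40 ± 1.17 CPM in WT follicles, and the HSPA8 (ENSDARG00000037403) copy 0.769 ± 0.122 CPM in HE, against 4.62 ± 0.646 CPM in WT.

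Several cell surface and cytoskeletal families held more lower than higher members. So did all genes between 1 and 10 CPM (28.2% lower and 14.8% higher), and the lists were not matched for abundance. Ephrins, semaphorins and their receptors gave 8 higher and 27 lower of 81. EFNA1 (ENSDARG00000018787), an ephrin ligand, was at 30.2, 32.9 and 29.2 CPM in HE follicles, against 4.66, 3.26 and 3.72 CPM in WT follicles (2.99 ± 0.15 on the log2 scale). PLXNB1 (ENSDARG00000017211), a semaphorin receptor, averaged 0.177 ± 0.0692 CPM in HE and 7.24 ± 0.949 CPM in WT follicles. Tight junction and cadherin genes gave 7 higher and 16 lower of 85, and actin and myosin genes 7 and 19 of 74 (11 lower without HE replicate 2 and 11 lower without HE replicate 3). The tight junction and cadherin list nevertheless summed to 6977, 7050 and 6445 CPM in HE and 6081, 4603 and 5931 CPM in WT libraries. Actin and myosin sums overlapped, at 9152 to 9795 CPM in HE and 7475 to 9494 CPM in WT. The myosin MYO10, which works in filopodia, was at 6.15, 5.96 and 6.56 CPM in HE follicles, against 27.8, 23.9 and 26.6 CPM in WT follicles (-2.07 ± 0.12 on the log2 scale). Matrix proteases and their inhibitors gave 7 higher and 20 lower of 73, MMP9 among the lower (21.5 ± 0.607 CPM in HE, against 47.5 ± 9.06 CPM in WT). Cilia genes gave 10 and 24 of 124. Ion channels were close to the background in the lower direction, with 29 higher and 33 lower of 169. LRRC8C, a subunit of the volume-regulated anion channel, averaged 2.63 ± 0.322 CPM in HE and 21.4 ± 1.14 CPM in WT follicles, and cacna1ha, a T-type calcium channel, 11.7 ± 0.785 CPM in HE, against 1.28 ± 0.251 CPM in WT.

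Chromatin regulators gave 23 higher and 18 lower of 156 (13 higher without HE replicate 1, 9 higher without HE replicate 3 and 13 higher without WT replicate 3). Splicing factors gave 14 higher and 5 lower of 104 (9 higher without HE replicate 1, 7 higher without HE replicate 2, 7 higher without HE replicate 3 and 9 lower without WT replicate 2). Nuclear pore and import genes gave 7 higher and 4 lower of 61; in all 3 lists the balance turned with library size alone and with upper quartile scaling. The chromatin balance also turned in the fit of the 6 libraries alone and without HE replicate 1, HE replicate 3 or WT replicate 3, and the nuclear pore balance without WT replicate 2, with 5 higher and 6 lower. NUP98, a nucleoporin of the central channel, averaged 196 ± 30.1 CPM in HE and 114 ± 26.2 CPM in WT follicles. EZH2, which methylates histone H3, averaged 129 ± 14.3 CPM in HE and 177 ± 8.82 CPM in WT follicles, and the DNA methyltransferase DNMT3B 12.02 ± 1.63 CPM in HE, against 25.7 ± 1.62 CPM in WT.

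Large changes were also found in further genes, some of them of families described above, such as the claudin cldn23.1 and the myosin myo15b. The 2377 higher genes included 223 whose log2 fold change exceeded 3, and the 2911 lower genes 349 beyond -3. enc3, a Kelch-repeat protein, was at 62.8, 76.3 and 55.6 CPM in HE follicles, against 4.68, 3.78 and 3.55 CPM in WT follicles (4.02 ± 0.14 on the log2 scale). opn7d, an opsin, was at 8.81, 8.45 and 8.88 CPM in HE follicles, against 0.243, 0.221 and 0.225 CPM in WT follicles (5.24 ± 0.16 on the log2 scale, edgeR adjusted p = 9.2e-10). TPH1 (ENSDARG00000029432), a tryptophan hydroxylase that starts serotonin synthesis, was at 74.4, 71.2 and 77.9 CPM in HE follicles, against 12.9, 12.8 and 13.6 CPM in WT follicles (2.51 ± 0.11 on the log2 scale). The 3 HE libraries of each were close together and several-fold above WT. HAPLN4, a link protein that joins hyaluronan to proteoglycans, averaged 58.5 ± 7.25 CPM in HE and 0.441 ± 0.269 CPM in WT follicles. Some genes were absent from a whole group: 74 called genes had 0 counts in all 3 WT libraries and 93 in all 3 HE libraries, of which 13 averaged at least 1 CPM in HE and 7 averaged at least 1 CPM in WT. MATN1, a matrilin of cartilage matrix, was at 8.13, 6.47 and 8.57 CPM in HE follicles, against 0, 0 and 0 CPM in WT follicles, at least 155-fold higher with each WT library set to 3 counts. GRHL2, an epithelial transcription factor, was at 0, 0 and 0 CPM in HE follicles, against 2.17, 3.03 and 1.94 CPM in WT follicles, at least 47.4-fold lower. cldn23.1, a claudin, was at 0, 0 and 0 CPM in HE follicles, against 2.31, 3.79 and 2.54 CPM in WT follicles, at least 57.4-fold lower. AHSA1 (ENSDARG00000028664), which stimulates the ATPase of Hsp90, was at 0, 0 and 0 CPM in HE follicles, against 2.25, 2.93 and 2.13 CPM in WT follicles, at least 48.5-fold lower. myo15b, a myosin, held 2 counts in all HE libraries together and averaged 7.02 CPM in WT. MATN1 and GRHL2 were picked after their values were seen.

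Whether the effect of the genotype at 8 mpf differed from that at 50 dpf was tested as the difference of the log2 fold changes (8 mpf minus 50 dpf). It passed the threshold for 1295 genes in the positive direction (6.88%) and 1253 in the negative (6.65%); without WT replicate 2 at 8 mpf, 4135 genes passed it in all. Liver genes gave 30 of 45 positive, with a median log2 fold change of 1.34 at 8 mpf beside -3.04 at 50 dpf. Exocrine pancreas genes gave 16 positive and 1 negative, with medians of 1.39 and -0.60. Matrix genes gave 5 positive and 12 negative of 66, with medians of -1.05 and -0.50. ER folding genes gave 4 positive and 2 negative of 74, with medians of 0.39 and 0.23. dnase2 was among the positive calls, and its log2 fold change was 3.21 at 8 mpf and -0.43 at 50 dpf (edgeR adjusted p of the difference = 1.9e-07). opn7d had 5.24 at 8 mpf and 0.78 at 50 dpf. actn3b, an alpha-actinin of fast muscle, had 3.55 at 8 mpf and -1.59 at 50 dpf. On the negative side SQLE had -3.10 at 8 mpf and 0.73 at 50 dpf (edgeR adjusted p = 3.3e-06). cdkn1a itself had -0.68 at 8 mpf and -2.94 at 50 dpf, a difference of 2.26 (edgeR adjusted p = 0.0019). Age was sampled in separate groups and no batch is given for either age or genotype, so that neither can be told apart from a batch that runs with it.

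**Figure D5:**
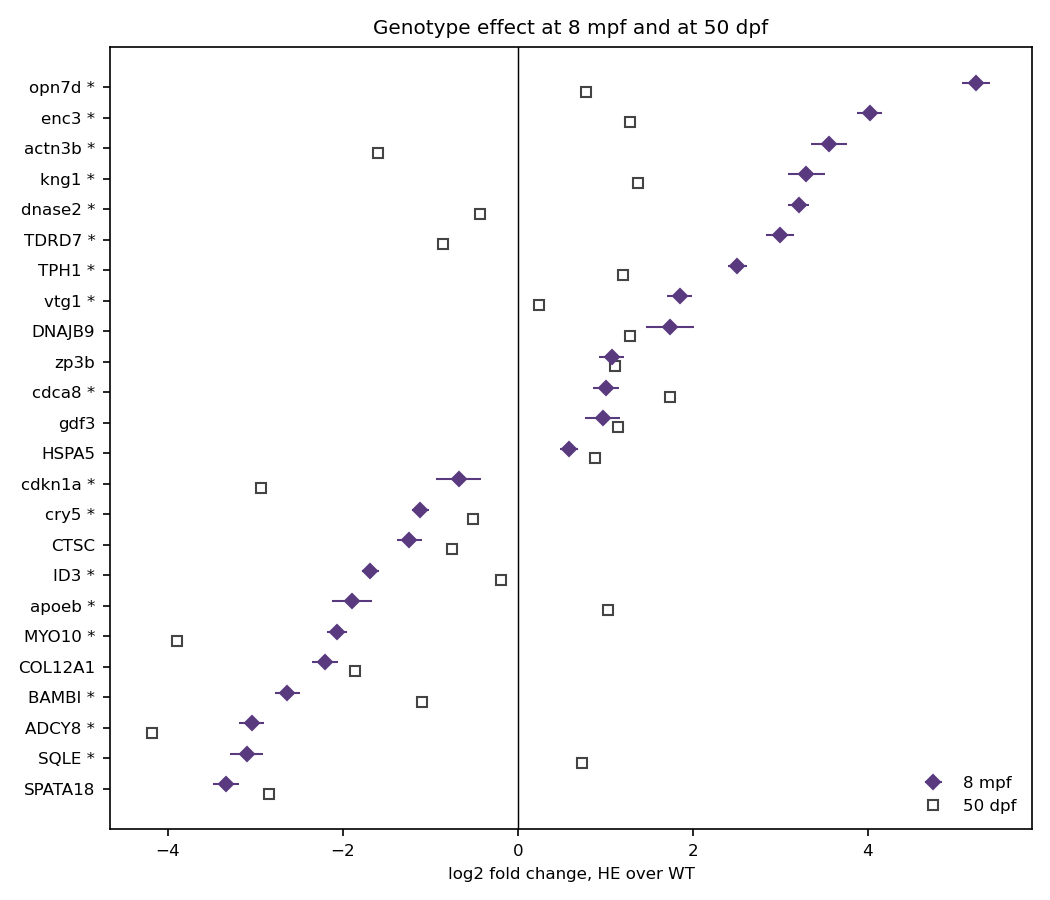
Log2 fold changes of HE over WT for 24 named genes, at 8 mpf (filled diamonds) and at 50 dpf (open squares), with bars of 1 SE at 8 mpf; genes are ordered by the value at 8 mpf. An asterisk after a name marks a difference between the ages at an adjusted p under 0.05, as for dnase2, opn7d and SQLE.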

How the data were processed

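Primary growth follicles of 3 HE and 3 WT samples at 8 mpf were compared, within a series of 12 libraries. The authors deposited a table of estimated counts per Ensembl gene, given as whole numbers, and a table of normalized signal (counts divided by factors per gene and sample). Per the submitters' processing notes, the tools used were bcl2fastq, FastQC 0.11.5, HISAT2, StringTie and DESeq2, with build GRCz11; their roles and settings are not given in the sources used here. The deposited table holds 32057 genes and no column or entry outside the mapped samples.

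From the counts, edgeR 4.0.16 (R 4.3.3) was fitted to all 12 libraries with TMM scaling, filterByExpr, 1 mean per group and the quasi-likelihood F test, with Benjamini-Hochberg adjustment over 18834 genes and a threshold of 0.05. The SE is the absolute log2 fold change over the square root of F. CPM is per TMM-scaled library size. The script was tested on simulated data with known fold changes. The exact permutation test was two-sided. A floor of 3 counts per library stood in for 0, and such floors and intervals cover counting error only. Alternatives used DESeq2 1.42.0, limma 3.58.1 (limma-trend on log2 of the normalized value plus 1), other scalings and filters, a replicate block, a fit of the 6 libraries alone, a minimum fold change and leaving out each library in turn.

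Symbols come from a table of gene identifiers, which named 17988 of the genes. Many are written as human symbols without paralog letters, and 448 genes of the lists were matched without that letter. The identifier is therefore given where several genes share a symbol. Neighbours of cdkn1a were taken from the RefSeq table of assembly GRCz12tu. The 70 gene lists and the members were chosen with earlier results of these data known. Entries were corrected after matching to the table, and the list of mitochondrial transcripts was added after first results. Genes were named by rule. Called genes without overlap gave, per direction, the 10 most abundant. At a log2 fold change of at least 1 and 5 CPM, they gave the 15 smallest p and 5 by the difference between ages. Each list gave up to 4 called members per direction, overlapping or not, and its most abundant member whatever its call. Not every such gene is printed, and most uncalled ones are left out. Among these were lamc1 of the matrix list (86.3 ± 9.28 CPM in HE, 88.7 ± 11.2 CPM in WT) and ctnnb2 of the Wnt list (652 ± 17.0 CPM in HE, 659 ± 113 CPM in WT). The uncalled ctss2.1 of the leukocyte list is given with that list. CORO1A, CTH, DNAJB9, EZH2, FN1, FOXL2, GRHL2, JUN, JUNB, LCP1, LEF1, MATN1, MPEG1, SYCP1, b2m, calr3a, dll4, grna, lyz, ndr1, noc4l, prss1, ptprc and vtg5 fall outside this rule and were chosen after their values were seen. Some results are not reported here.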

Additional observations from a re-analysis of the deposited data

Results flagged for a closer look

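Of the genes named here, 78 had a genotype effect that differed between the ages at an adjusted p under 0.05. The test was edgeR's on the difference of the log2 fold changes, 8 mpf minus 50 dpf. Among all tested genes 6.88% passed it in the positive and 6.65% in the negative direction. Genes were named partly by this difference and by a small p at 8 mpf, which by itself raises the count. The differences are on the log2 scale, and no explanation of them was tested. Groups of 3 libraries are too small for a test of outliers. Where a group holds 0 to 3 counts (AHSA1, GRHL2, MATN1, RXFP2, ela2l and alox5b.3) the fitted difference depends on the prior count and is no bound. Genes with a positive log2 fold change at 8 mpf and a negative one at 50 dpf differed by 8.54 for ela2l, 7.72 for fabp10a, 5.15 for actn3b, 3.85 for TDRD7, 3.64 for dnase2, 3.4 for EFNA1, 2.19 for lyz, 1.34 for kdrl, 1.33 for prss1 and 1.3 for ERO1A. Further differences were 0.71 for NOP56. The classes go by sign alone, and some values at 50 dpf were near 0, with -0.02 for ERO1A, -0.09 for kdrl and -0.11 for prss1. The same held for irf1a (0.02) in the class that follows, and lyz was not called at 8 mpf. Genes with positive log2 fold changes at both ages, the larger at 8 mpf, differed by 6.25 for alox5b.3, 4.74 for MATN1, 4.46 for opn7d, 3.08 for irf1a, 2.74 for enc3, 1.95 for cacna1ha, 1.92 for kng1, 1.61 for vtg1, 1.56 for vtg2 and 1.53 for CHORDC1. Further differences were 1.5 for FZD8, 1.31 for TPH1, 1.28 for DNAH5, 1.1 for nfkb1, 0.99 for NOD2, 0.91 for SLC46A1 and 0.44 for PFKM. Genes with positive log2 fold changes at both ages, the smaller at 8 mpf, differed by -1.42 for FANCL, -0.9 for PANX3, -0.8 for hadhaa and -0.73 for cdca8.

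Genes with a negative log2 fold change at 8 mpf and a positive one at 50 dpf differed by -3.84 for SQLE, -2.92 for apoeb, -2.5 for LFNG, -1.65 for PPT1, -1.51 for MMP9, -1.51 for ndr1 and -1.02 for PIWIL2. Genes with negative log2 fold changes at both ages, the larger in size at 8 mpf, differed by -7.44 for AHSA1, -6.81 for GRHL2, -4.47 for PDK2, -2.97 for PTGS2, -2.79 for SLC12A7, -2.58 for CCR9, -2.5 for THBS1, -1.8 for snai2, -1.8 for IRS2 and -1.69 for FZD7. Further differences were -1.61 for CTH, -1.54 for BAMBI, -1.5 for ID3, -1.42 for HSPA8, -1.31 for NID2, -1.3 for DUSP5, -1.26 for ME1, -1.21 for JUNB, -1.04 for DUSP6 and -0.96 for MYC. Next came -0.8 for ephx5, -0.78 for slc3a2a, -0.72 for EPHX2, -0.69 for CYP1A1, -0.68 for ESR2, -0.61 for cry5 and -0.57 for aqp7. Genes with negative log2 fold changes at both ages, the smaller in size at 8 mpf, differed by 10.37 for RXFP2, 4.21 for CASP6, 2.26 for cdkn1a, 1.83 for MYO10, 1.61 for CCNE2, 1.61 for FOXL2, 1.44 for mhc1uba, 1.14 for ADCY8, 1.07 for PSMB9 and 0.98 for LSS. Further differences were 0.92 for CCND1 and 0.69 for foxq1b.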

How the results depend on the processing

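Of the 178 called genes named here, 170 were called under every alternative that tested them, the minimum fold change left aside, and none reversed. Many were named for a small p or for groups without overlap, which by itself favours such stability. The 2377 higher genes became 1337 with library size alone and 832 with a minimum log2 fold change of 1, and ranged from 1626 to 2663 on leaving out single libraries. The 2911 lower genes became 1857 with that minimum and ranged from 2284 to 2871 on leaving out libraries. The 2548 genes whose effect differed between ages became 1556 with that minimum and ranged from 1834 to 4135, the highest without WT replicate 2. cdkn1a had a log2 fold change of -0.68, which passed the threshold with upper quartile scaling (-0.77), with library size alone (-0.88) and without WT replicate 1, and ranged from -0.82 to -0.43 on leaving out libraries. 38 of the 70 gene lists had more lower than higher members, and between 36 and 56 under the alternatives. The scaling moves the median of all genes, from 0.01 to -0.17 with library size alone, which by construction moves every gene the same way; the cause of the other shifts was not tested.

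The labels number replicates 1 to 3 in each group, but nothing says that a number is shared, and the deviations of same-numbered HE and WT libraries correlated at 0.105, -0.159 and -0.0501 across genes, so the numbers were not taken as pairs. With the replicate block, 1863 genes were higher, 2201 lower and 1582 differed between ages, cdkn1a had -0.65, and 40 lists had more lower than higher members. No HE library correlated best with the WT library of its own number except replicate 1. Libraries of 43003225 to 96839220 counts limit genes at or under 1 CPM, where the SD is often a large part of the mean.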

Other observations

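Families outside the pathways above were also sorted by call. TRIM and finTRIM ubiquitin ligases gave 10 higher and 13 lower members of 68, beside 12.6% and 15.5% of all tested genes, and the balance turned with the replicate block, without HE replicate 2 and without WT replicate 2 (8 lower without HE replicate 1, 8 lower without HE replicate 2 and 7 lower without WT replicate 2). ftr86, a finTRIM gene, averaged 154 ± 10.4 CPM in HE and 71.9 ± 12.2 CPM in WT follicles, although finTRIM genes include near-identical copies whose reads may be split. Cytochromes P450 gave 6 higher and 9 lower of 57. CYP1A1, which the aryl hydrocarbon receptor induces, averaged 2.15 ± 0.261 CPM in HE and 8.09 ± 0.648 CPM in WT follicles, and CYP26A1, which breaks down retinoic acid, 12.1 ± 0.222 CPM in HE, against 24.3 ± 2.43 CPM in WT. cyp2p6 was on the higher side (4.803 ± 0.333 CPM in HE, against 0.894 ± 0.129 CPM in WT). ABC transporters gave 6 higher and 14 lower of 45. Integrins, the receptors that cells use to hold the matrix, gave 7 higher and 5 lower of 31, and turned with library size alone. ITGB6, an integrin beta chain, was at 21.2, 19.5 and 14.9 CPM in HE follicles, against 4.78, 2.90 and 2.99 CPM in WT follicles (log2 fold change 2.39 ± 0.22), with no overlap between the groups.

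Histone genes gave 4 higher and 2 lower of 34, and Kelch and F-box adaptors 10 and 11 of 106 (6 higher without HE replicate 2; the balance turned with DESeq2). Receptors for gonadotropins, relaxins and neuropeptides gave 3 higher and 7 lower of 28. RXFP2 (ENSDARG00000019660), a relaxin family receptor, was at 2.38, 2.70 and 2.38 CPM in HE follicles, against 17.2, 13.2 and 16.2 CPM in WT follicles (log2 fold change -2.65 ± 0.14). Gap junction genes gave 1 higher and 3 lower of 17, the higher one being the pannexin PANX3 (16.7 ± 0.439 CPM in HE, against 7.26 ± 0.805 CPM in WT). Aquaporins gave 2 and 2 of 6, with the glycerol channel aqp7 lower (6.24 ± 0.423 CPM in HE, against 12.1 ± 0.941 CPM in WT). Opsins gave 2 and 2 of 14, and skeletal muscle genes 3 and 2 of 22. Of 14 chaperonin and prefoldin genes, 0 were higher and 0 lower by edgeR's test; at an unadjusted p under 0.05 there were 2 higher and 0 lower, DESeq2 called 1 higher and 0 lower, and limma-trend 0 in either direction. DNAH5, a dynein of motile cilia, was at 16.4, 14.0 and 15.3 CPM in HE follicles, against 4.21, 4.66 and 4.13 CPM in WT follicles (log2 fold change 1.81 ± 0.20). The lists together held 1167 of the 5288 called genes (22.1%), beside 19.8% of all tested genes, so that most of the called genes were in no list.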
